A study of Homo sapiens with 4 samples.

Results

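Tryptophan catabolism and its link to the aryl hydrocarbon receptor were followed through 10 genes: the kynurenine pathway enzyme genes IDO1, TDO2, AFMID, KMO and KYNU, the receptor gene AHR, its repressor gene AHRR, and the receptor's target genes CYP1A1, CYP1B1 and TIPARP. They were named one by one, with earlier results of these data known, out of 58812 Ensembl genes with counts. RNA was sequenced from A549, an established lung carcinoma epithelial cell line, not genetically altered per the labels. The control group (n = 2 libraries) carried 1 µg of the empty plasmid pCMV6-Entry for 24 hr, and the SAMD9 group (n = 2 libraries) carried for the same time the same amount of a plasmid for SAMD9 carrying a Myc-DDK tag. SAMD9 is an interferon-inducible antiviral protein, made here from a transfected plasmid, and the share of cells that took it up is not given in the sources used here. All 10 genes passed the filter on low counts and were among the 19814 genes tested, IDO1 only through its counts in the SAMD9 libraries.

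In the kynurenine pathway, IDO1 or TDO2 opens the ring of tryptophan, AFMID releases kynurenine, and KMO and KYNU carry it on towards NAD synthesis. TDO2 is best known from liver, whereas IDO1 is induced by interferons in many cell types, in which loss of tryptophan restrains microbes and T cells. Kynurenine and other tryptophan products can bind AHR, a ligand-activated transcription factor that waits in the cytosol with HSP90, pairs with ARNT in the nucleus and switches on CYP1A1, CYP1B1, AHRR and TIPARP. AHRR and TIPARP then dampen the receptor.

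The libraries held between 29301854 and 39670083 counts. SAMD9 itself (ENSG00000205413) gave 444 and 400 counts in the 2 controls against 220123 and 184350 under SAMD9, in keeping with the labels. Gene counts do not separate plasmid from endogenous transcripts. Of 5 epithelial markers, 4 could be tested, of which KRT8 (1.32-fold, adjusted p = 9.7e-07 by edgeR) and CDH1 (1.85-fold, adjusted p = 5.0e-09) rose and EPCAM and KRT18 were not called. KRT19 had between 5 and 10 counts. The fibroblast markers summed to 1.69 and 2.72 CPM with empty vector and 5.85 and 6.04 CPM with SAMD9 (CPM is the count scaled to a common library size, here with edgeR's TMM method). The collagen gene COL1A1, the only tested one of these 5, rose 3.04-fold (45 and 70 counts against 194 and 160, adjusted p = 3.6e-05), while DCN was at 0 in all 4 libraries. The part of these markers in the results below was not tested. Of 10 myeloid and dendritic markers, 4 were tested (CD14, CSF1R, ITGAX and ITGAM) and none was called. Another 3 (CD1C, CLEC9A and AIF1) were at 0 in all 4 libraries. The list summed to 8.37 and 7.20 CPM with empty vector and 8.18 and 8.21 CPM with SAMD9. The leukocyte gene PTPRC had 0 counts in 3 libraries and 3 counts in SAMD9 replicate 2, and the 6 lymphocyte markers summed to between 2 and 9 counts a library. The 4 endothelial markers were too low to test, and of 5 hepatocyte markers 2 were tested and none was called.

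With SAMD9, IDO1 rose about 985-fold, CYP1B1 2.24-fold and KYNU 1.21-fold, while CYP1A1 fell to 0.428 of its empty vector level. TDO2, AFMID, KMO, AHR, AHRR and TIPARP did not pass the test. So 3 of the 10 genes were called higher and 1 lower (quasi-likelihood test of edgeR, with p below 0.05 after Benjamini-Hochberg adjustment over the 19814 genes), against a background in which 27.5% of all tested genes were called, 15.3% higher and 12.2% lower. The 2 libraries of one group did not overlap those of the other for 7 of the 10 genes, and the same held for 62.0% of all tested genes. The median log2 fold change was 0.10 over the 10 genes and -0.01 over all genes tested. With total-count scaling, log2 fold changes shifted by a median of -0.19 from those with TMM, and 4 of the 10 genes were then called lower.

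**Figure D1:**
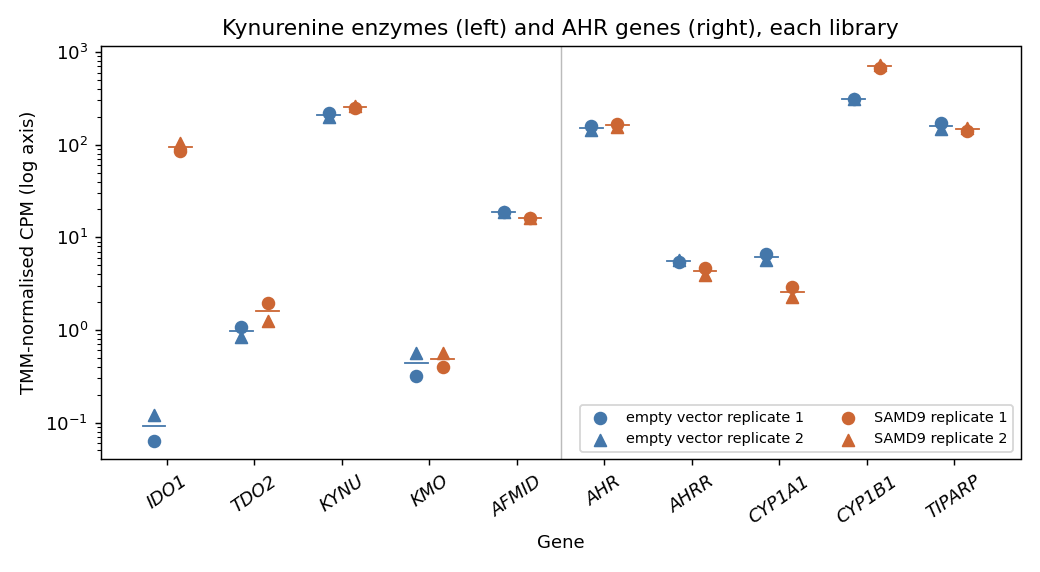
TMM-normalised CPM (log axis) of the 10 genes in each library, with empty vector in blue, SAMD9 in orange, circles for replicate 1, triangles for replicate 2 and a line at each group's mean. IDO1 went from 0.0639 and 0.120 CPM to 85.0 and 105 CPM, CYP1B1 and CYP1A1 moved in opposite directions, and the values of KMO, AHR and TIPARP overlapped between groups.

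IDO1 encodes the interferon-inducible dioxygenase that opens the tryptophan ring. The gene (ENSG00000131203, chromosome 8, 39902275 to 39928444, plus strand, GRCh38) gave 2 and 4 counts in the 2 controls against 3168 and 3017 under SAMD9. It was thus near the limit of detection in both control libraries and well expressed in both SAMD9 libraries. It averaged 0.0917 ± 0.0393 CPM in the controls and 95.2 ± 14.4 CPM under SAMD9 (SD, n = 2 libraries each) (log2 fold change 9.94, SE 0.21, adjusted p = 2.1e-20 by edgeR). Because the control total was only 6 counts, the size of the fold is loosely set. The ratio of scaled counts was 1013, with an exact 95% counting interval from 465 to 2760. Low counts were mostly even, as if both mates of each pair had been counted, so this interval may be too narrow. Leaving out 1 library at a time gave log2 fold changes between 9.59 (without empty vector replicate 1) and 10.46 (without empty vector replicate 2). Bulk counts cannot tell more IDO1-expressing cells from more IDO1 RNA per cell. IDO1 shares 120 of its 3261 exonic bases with an unnamed gene on the other strand (ENSG00000254287). That gene gave 0 and 0 counts in the controls against 29 and 20 under SAMD9. Without a stated strand setting, reads of the pair are not separable where they overlap. No 31-base stretch of the GENCODE 29 transcripts of IDO1 occurs in another gene.

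TDO2 catalyses the same reaction as IDO1. It gave 34 and 28 counts in the controls against 73 and 36 under SAMD9, which averaged 0.962 ± 0.177 and 1.61 ± 0.495 CPM (SD, n = 2 libraries each). Both SAMD9 libraries lay above both control libraries, but the difference did not pass the test (log2 fold change 0.75, SE 0.41, adjusted p = 0.20 by edgeR). IDO2, the neighbouring paralog of IDO1, had 0, 4, 11 and 4 counts in the 2 empty vector and 2 SAMD9 libraries in that order and was too low to test. Among the summed counts of these 3 ring-opening enzymes, IDO1 made up 5.56% (95% exact binomial interval 0.680 to 18.7) and 11.1% (3.11 to 26.1) in the empty vector libraries, each with 36 counts in all. In the SAMD9 libraries it made up 97.4% (96.8 to 97.9) of 3252 counts and 98.7% (98.2 to 99.1) of 3057. The intervals cover counting error only and, with low counts mostly even, may be too narrow for the empty vector libraries. The dioxygenase transcripts, mostly those of TDO2 in control cells, were thus nearly all those of IDO1 with SAMD9.

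KYNU encodes kynureninase, which cleaves kynurenine and 3-hydroxykynurenine. It was abundant in every library, with 6902 and 6665 counts in the controls against 9352 and 7413 under SAMD9. Its level rose from 210 ± 15.2 to 255 ± 5.76 CPM (SD, n = 2 libraries each) (log2 fold change 0.28, SE 0.06, adjusted p = 0.00167 by edgeR). Under total-count scaling the call was lost (log2 fold change 0.09, adjusted p = 0.28), so this small rise depends on the scaling. AFMID, the formamidase gene that acts between the dioxygenases and kynurenine, gave 586 and 635 counts in the controls against 608 and 462 under SAMD9, which averaged 18.9 ± 0.173 and 16.2 ± 0.118 CPM (SD, n = 2 libraries each). The SAMD9 libraries were lower in CPM without overlap, yet the difference did not pass (log2 fold change -0.22, SE 0.12, adjusted p = 0.18), whereas total-count scaling called it lower (-0.41, adjusted p = 0.00802). KMO, the monooxygenase gene that makes 3-hydroxykynurenine, gave 10 and 19 counts in the controls against 15 and 16 under SAMD9. Its groups overlapped (log2 fold change 0.10, SE 0.68, adjusted p = 0.94), and at this depth the SE spans changes of either sign. KMO also shares 1691 exonic bases with OPN3 on the other strand.

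Across a wider list of 13 kynurenine route genes, 9 could be tested, and IDO1 and KYNU were the 2 that rose, with none called lower and a list median of 0.10 on the log2 scale (over all genes tested, 15.3% were called higher and 12.2% lower). With total-count scaling, 1 gene, IDO1, rose and 2 fell (AFMID and GOT2). The aminotransferase genes that turn kynurenine into kynurenic acid had log2 fold changes of -0.21 (SE 0.20) for KYAT1, 0.44 (SE 0.17) for KYAT3, -0.17 (SE 0.14) for AADAT and 0.02 (SE 0.06) for GOT2, none of which passed. Without empty vector replicate 1, KYAT3 was called higher (0.65, adjusted p = 0.00730), and under total-count scaling GOT2 was called lower (-0.17, adjusted p = 0.0258). The genes of this list that act after KYNU, HAAO, ACMSD and QPRT, were barely detected. HAAO had between 0 and 4 counts a library, ACMSD between 0 and 12, and QPRT between 2 and 16, too few to test. Like KMO, these genes were thus near the detection limit in both groups.

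Enzymes of other tryptophan routes, later steps of these routes among them, gave 2 rises among 5 tested genes of 9 listed, beside 15.3% of all tested genes. WARS1, which charges tryptophan onto its tRNA, gave 4575 and 4347 counts in the controls against 25576 and 21265 under SAMD9, a 5.17-fold rise (log2 fold change 2.37, SE 0.07, adjusted p = 3.4e-18 by edgeR). IL4I1, a secreted amino acid oxidase that turns tryptophan into products able to bind AHR, gave 14 and 14 counts in the controls against 507 and 337 under SAMD9 (log2 fold change 4.86, SE 0.24, adjusted p = 2.4e-13). IL4I1 shares 336 exonic bases with NUP62 on the same strand and 11.5% of its 31-mers with other genes, so its level is uncertain. WARS2, the mitochondrial counterpart of WARS1, had a log2 fold change of -0.12 (SE 0.16) and did not pass. The serotonin-route gene DDC was not called either (0.06, SE 0.21). Without SAMD9 replicate 1, MAOA, a monoamine oxidase gene, was called lower (-0.89, adjusted p = 0.0359).

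In a list of 9 NAD metabolism genes, called NAD supply here, 5 rose and 1 fell, with a median of 0.27 on the log2 scale. Over all tested genes, 15.3% were called higher and 12.2% lower. The list includes NNMT and NADK, which use nicotinamide or NAD rather than supply it, so its rises are not all of supply genes. NAMPT, the rate-limiting enzyme of NAD salvage from nicotinamide, rose from 76.1 ± 5.28 to 225 ± 10.2 CPM (SD, n = 2 libraries each; log2 fold change 1.57, SE 0.07, adjusted p = 2.0e-14 by edgeR), and NNMT, which methylates nicotinamide, from 40.8 ± 2.91 to 68.9 ± 3.54 CPM (SD, n = 2 libraries each; 0.76, SE 0.08). NMNAT2 (0.36, SE 0.12), NMRK1 (0.93, SE 0.30) and NADK (0.21, SE 0.07) rose and NAPRT (-0.37, SE 0.12) fell, each a call that at least 1 alternative ended. NAPRT was not called without any 1 of the libraries. The list had 2 rises and 2 falls under total-count scaling, 3 and 0 with DESeq2 or without SAMD9 replicate 1, 2 and 0 without SAMD9 replicate 2, and 4 and 0 without empty vector replicate 1 or 2. NAMPT shares 21.3% of its 31-mers with other genes, a pseudogene copy among them.

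Of 9 genes of tryptophan and kynurenine transport and amino acid sensing, 3 of the 8 tested fell and none rose, with a median of -0.28 on the log2 scale, where 12.2% of all tested genes fell and 15.3% rose. SLC7A11, the cystine transporter gene, fell from 390 ± 20.5 to 252 ± 12.8 CPM (SD, n = 2 libraries each; log2 fold change -0.63, SE 0.06, adjusted p = 2.5e-08 by edgeR), and EIF2AK4, which encodes the kinase GCN2 that senses uncharged tRNA, by 0.40 (SE 0.08) on the log2 scale. SLC7A5, the light chain of the LAT1 carrier for tryptophan and kynurenine, gave high counts in every library, 58502 and 67597 counts in the controls against 63830 and 50890 under SAMD9. Its log2 fold change was -0.16 (SE 0.05, adjusted p = 0.0240), a call that ended without SAMD9 replicate 1 (adjusted p = 0.29) or SAMD9 replicate 2 (adjusted p = 0.0970). SLC3A2, the partner chain, was at 0.11 (SE 0.05) and was called higher without empty vector replicate 1 (0.13, adjusted p = 0.0248). Under total-count scaling 5 genes of the list fell.

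AHR, the receptor gene (ENSG00000106546, chromosome 7, 17298622 to 17346152), gave 4929 and 4793 counts in the controls against 6222 and 4487 under SAMD9. Scaled, these were 158 and 143 CPM against 167 and 157 CPM, so the groups overlapped. The log2 fold change was 0.11 (SE 0.07, adjusted p = 0.27 by edgeR), turning to -0.08 under total-count scaling. The gene was called higher without empty vector replicate 1 (0.18, adjusted p = 0.0348). Of AHR's 31-mers, 31.6% also occur in other genes, so its absolute level is less certain than its comparison between libraries. AHRR encodes the repressor that competes with AHR for ARNT and is itself an AHR target. It gave 168 and 190 counts in the controls against 175 and 112 under SAMD9, which averaged 5.52 ± 0.218 and 4.30 ± 0.552 CPM (SD, n = 2 libraries each). The SAMD9 libraries were the lower ones in CPM, but the difference did not pass (-0.36, SE 0.20, adjusted p = 0.22) except under total-count scaling (-0.54, adjusted p = 0.0379). AHRR shares 244 exonic bases with PDCD6 on the same strand.

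Of 14 genes of the AHR complex and its cofactors, all tested, 5 rose and none fell, with a median of 0.11 on the log2 scale, where 15.3% of all tested genes rose and 12.2% fell. RELB, an NF-kB subunit that can pair with AHR, rose from 79.6 ± 3.90 to 165 ± 6.45 CPM (SD, n = 2 libraries each; log2 fold change 1.05, SE 0.07, adjusted p = 2.6e-11 by edgeR), and the coactivator gene NCOA2 rose by 0.55 (SE 0.07). NCOA3 was at 0.25 (SE 0.06), HSP90AA1 at 0.15 (SE 0.05) and HSP90AB1 at 0.17 (SE 0.05). These 3 calls were lost under total-count scaling, where HSP90AA1 (-0.04) and HSP90AB1 (-0.02) turned below 0, and without SAMD9 replicate 2. The list had 2 rises and 5 falls under total-count scaling, and 2 and 1 without SAMD9 replicate 2. The DNA-binding partner ARNT (-0.08, SE 0.08) was not called.

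CYP1A1 encodes the monooxygenase most often used as a readout of AHR activity. The gene (ENSG00000140465, chromosome 15, 74719542 to 74725610, minus strand) gave 206 and 189 counts in the controls against 109 and 65 under SAMD9. Both SAMD9 libraries were below both controls. Its level fell from 6.12 ± 0.662 to 2.60 ± 0.461 CPM (SD, n = 2 libraries each) (log2 fold change -1.22, SE 0.22, adjusted p = 0.000196 by edgeR), and it was called lower under all 8 alternatives, with values from -1.42 to -1.06. CYP1A2, its neighbour and paralog, was at 0 in all 4 libraries, and 0.780% of CYP1A1's 31-mers occur in another gene.

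CYP1B1, the AHR target that oxidises estradiol and polycyclic hydrocarbons, moved the other way. The gene (ENSG00000138061, chromosome 2, 38066973 to 38109902, minus strand) gave 9781 and 10492 counts in the controls against 25095 and 20869 under SAMD9. Its level rose from 313 ± 0.629 to 701 ± 39.6 CPM (SD, n = 2 libraries each) (log2 fold change 1.16, SE 0.06, adjusted p = 1.7e-13 by edgeR), and all 8 alternatives called it higher, with values from 0.97 to 1.22. CYP1B1-AS1, which shares 293 exonic bases with it on the other strand, also rose (0.96, SE 0.30, adjusted p = 0.0201), and reads of the 2 genes cannot be told apart where they overlap. TIPARP, the ADP-ribosyltransferase gene induced by AHR, gave 5314 and 4995 counts in the controls against 5236 and 4379 under SAMD9. Its groups overlapped at 170 and 149 CPM against 140 and 153 CPM, and it did not pass (log2 fold change -0.12, SE 0.07, adjusted p = 0.23). It was called lower without empty vector replicate 2 (-0.21, adjusted p = 0.00831) and under total-count scaling (-0.31, adjusted p = 0.00117).

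Ratios between genes within a library do not depend on the scaling of that library. The CYP1B1 level was 27.1 and 31.7 times the CYP1A1 level in the empty vector libraries and 131 and 183 times in the SAMD9 libraries, by the authors' deposited RPKM (CPM divided by gene length in kilobases). The IDO1 level was 0.00156 and 0.00324 of the KYNU level with empty vector and 1.83 and 2.20 times that level with SAMD9. That IDO1 stood above KYNU rests on the listed lengths, 3261 bases for IDO1 and 17600 for KYNU (all its annotated exons joined), since by counts IDO1 was below KYNU in both SAMD9 libraries (3168 against 9352 and 3017 against 7413). The difference between the groups does not depend on these lengths. In both pairs the groups were far apart, but with 2 libraries against 2 an exact two-sided permutation test cannot go below 0.333, which is the p that each gave.

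**Figure D2:**
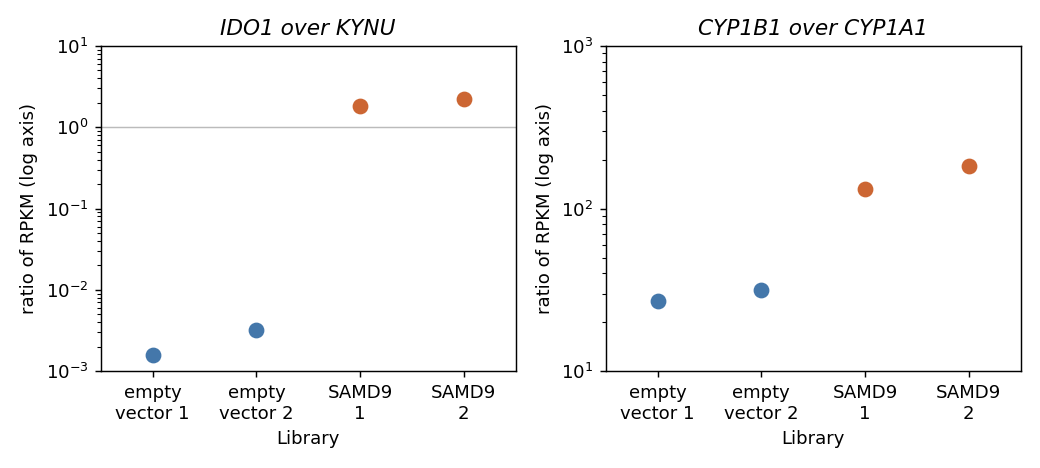
Ratio of the authors' RPKM values (log axis) in each of the 4 libraries, for IDO1 over KYNU on the left and CYP1B1 over CYP1A1 on the right. The IDO1 ratio was below 0.01 in both empty vector libraries and 1.83 and 2.20 with SAMD9, where its standing above 1 rests on the gene lengths used, and the CYP1B1 ratio went from 27.1 and 31.7 to 131 and 183.

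The AHR-ARNT pair binds the core letters GCGTG of the xenobiotic response element (XRE). The promoters of these genes (RefSeq, GRCh38.p14, from 250 bases before to 50 after a start site) were searched for it on both strands, together with the interferon-stimulated response element core (GAAA, any 2 bases and GAAA again) and the STAT dimer element TTCNNNGAA. Of the 10 genes, 8 were matched in the promoter table (all but IDO1 and CYP1B1). The shares of all 35116 promoters with at least 1 match were 36.5%, 3.57% and 7.66% in that order, so an XRE core in such a window is common. The following windows of 30 bases, printed 5′ to 3′ on the gene's strand with the match in capitals, show XRE cores of the 3 AHR targets matched, then a STAT element of KYNU and the interferon element of WARS1 as examples of the other motifs. CACGC is the XRE core read from the other strand.
CYP1A1, chr15:74725568-74725597, minus strand: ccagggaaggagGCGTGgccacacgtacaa
TIPARP, chr3:156674370-156674399, plus strand: cgcgagaaaggaCACGCcccctcgcgggag
TIPARP, chr3:156674436-156674465, plus strand: cgaacgaacgcgCACGCgcgcgcagggggc
AHRR, chr5:321672-321701, plus strand: ggcgggcggctcGCGTGccggggtggggca
AHRR, chr5:322556-322585, plus strand: gcagaagggtggGCGTGtgcgcgcgttctc
KYNU, chr2:142877620-142877649, plus strand: gtctgagcagTTCTTTGAAtttctcaccct
WARS1, chr14:100375383-100375412, minus strand: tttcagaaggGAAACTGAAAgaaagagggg

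The CYP1A1 match began at position -57 from the start site and was the gene's only XRE core in the window, while TIPARP held 2 matches (-208 and -142) at 1 of its 3 listed start sites. AHRR held 3 over its 2 listed start sites, of which those at -30 and -42 are shown. AHR and AFMID held 1 XRE core each, and TDO2, KMO and KYNU held none. The interferon element core was in none of the 8 matched genes' windows, and KYNU held 2 STAT elements, the one shown at -34. The WARS1 element began at -55 from the more downstream of its 2 listed start sites. None of the printed matches overlapped a match of another of these motifs. XRE cores were also in the windows of genes that rose: WARS1 held 1 at each start site, beside 1 STAT element, and IL4I1 and NAMPT held 1 each with no interferon or STAT element. These are letter matches only, and binding was not measured.

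Of 17 listed AHR targets, 13 could be tested, of which 2 rose and 2 fell, with a median of -0.10 on the log2 scale. These counts were near the shares over all tested genes, of which 15.3% rose and 12.2% fell. Besides CYP1B1 and CYP1A1, the calls were the cytokine gene IL6, with 4 and 2 counts in the controls against 458 in each SAMD9 library (log2 fold change 7.19, SE 0.33, adjusted p = 3.7e-14 by edgeR), and CDKN1B, which encodes the cell cycle inhibitor p27 (-0.42, SE 0.09, adjusted p = 0.000597). IL6 is also an NF-kB and interferon-linked gene and stands in more than 1 list here. It passed the filter on low counts only through the SAMD9 libraries, so it could be tested only because it was high there. The detoxification genes NQO1 (0.11, SE 0.05) and ALDH3A1 (-0.10, SE 0.07) and the transporter gene ABCG2 (-0.25, SE 0.09) were not called. Under total-count scaling 2 rose and 7 fell, without empty vector replicate 1 there were 4 rises, and without empty vector replicate 2 there were 4 falls.

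By deposited RPKM within a library, CYP1B1 was the most abundant of the 10 genes in all 4 libraries, at 55.5 and 55.5 with empty vector and 105 and 113 with SAMD9. With empty vector the order went on with TIPARP (35.9 and 31.5), AHR (25.3 and 22.9), KYNU (13.4 and 12.0), AFMID (4.94 and 4.99), CYP1A1 (2.05 and 1.75), AHRR (0.747 and 0.787), TDO2 (0.220 and 0.169), KMO (0.0574 and 0.102) and IDO1 (0.0209 and 0.0390), and no neighbours in this order overlapped. With SAMD9, IDO1 (24.5 and 30.1) moved from the last place to the level of TIPARP (26.1 and 28.2), from which it could not be told apart, just above AHR (23.5 and 21.9). The other 9 genes kept their order among themselves. KYNU's place again rests on its listed length, which lowers its RPKM if the cells use a shorter transcript.

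**Figure D3:**
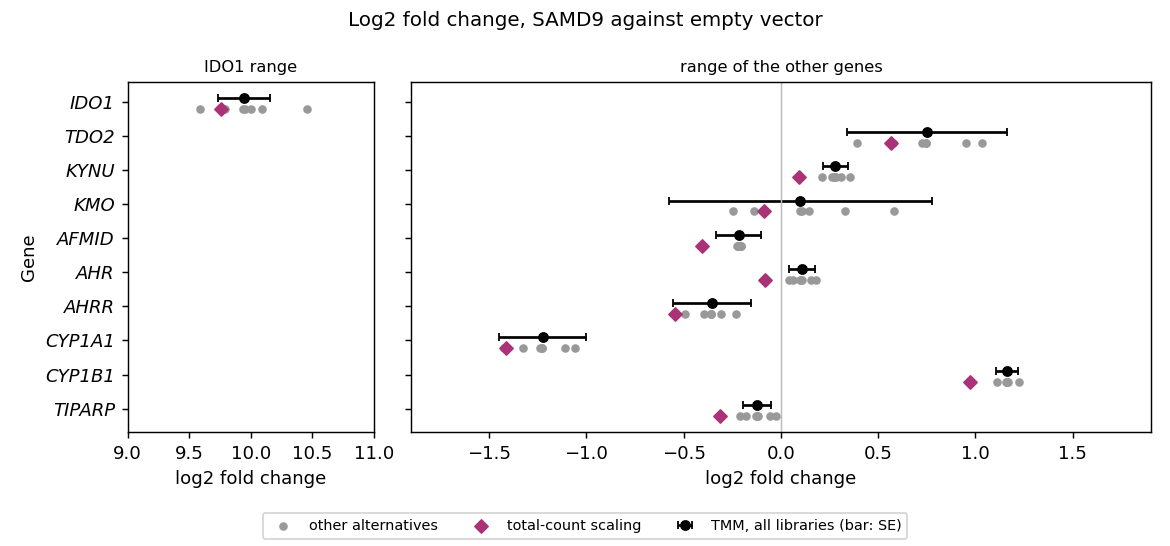
Log2 fold change of SAMD9 against empty vector for the 10 genes, as black points with SE bars for TMM scaling with all libraries, purple diamonds for total-count scaling and grey points for the other 7 alternatives. IDO1 has its own axis, from 9 to 11. CYP1A1 stayed below 0 and CYP1B1 and IDO1 above 0 in every setting shown, KYNU came near 0 under total-count scaling, and KMO and AHR fell on both sides of 0.

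IDO1 is known to be induced through IRF1. Of 16 listed interferon and NF-kB genes linked to IDO1, 13 of 15 tested rose and 1 fell, beside 15.3% and 12.2% of all genes tested. The list median was 1.97 on the log2 scale against -0.01. The list was chosen with earlier results of these data known, and the part of its genes in the IDO1 rise was not tested. IRF1 rose 22.4-fold, STAT2 17.4-fold and JAK2 6.70-fold, with SE between 0.07 and 0.09 on the log2 scale (largest adjusted p = 3.5e-17 by edgeR). IFNB1 (interferon beta) gave 2 counts in each control against 1094 and 1124 under SAMD9. IFNB1, IL6 and IRF8 (0 counts in each control against 36 in each SAMD9 library) passed the filter on low counts only through the SAMD9 group. IFNG, the interferon gamma gene and the best known inducer of IDO1, had 0 counts in all 4 libraries. If counts were independent, this allows up to 3 counts in each. JAK1 fell by 0.26 (SE 0.06) on the log2 scale, a call that was lost without SAMD9 replicate 1 (adjusted p = 0.0565). BIN1, a gene whose loss is linked to higher IDO1, was at -0.06 (SE 0.08).

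The 3 tested genes whose levels in the 4 libraries lay nearest to those of IDO1, by Euclidean distance of log2(CPM + 0.5), were CCL5 (distance 0.997), GBP4 (1.35) and IFITM1 (1.35), all of which were below 10 counts in both controls. CCL5 had 4820 and 5228 counts with SAMD9, GBP4 6129 and 5866, and IFITM1 1882 and 1397. Nearest to CYP1B1 were CXCL5 (0.232), ZFP36L1 (0.276) and DNAJA1 (0.320), with log2 fold changes of 1.17, 0.95 and 1.19. Nearest to CYP1A1 were DHRS13 (0.177), KCNQ1DN (0.267) and NAA80 (0.301), with log2 fold changes of -1.08, -1.09 and -0.89. These distances rest on 4 libraries in 2 groups and mostly restate the level and the group difference.

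**Figure D4:**
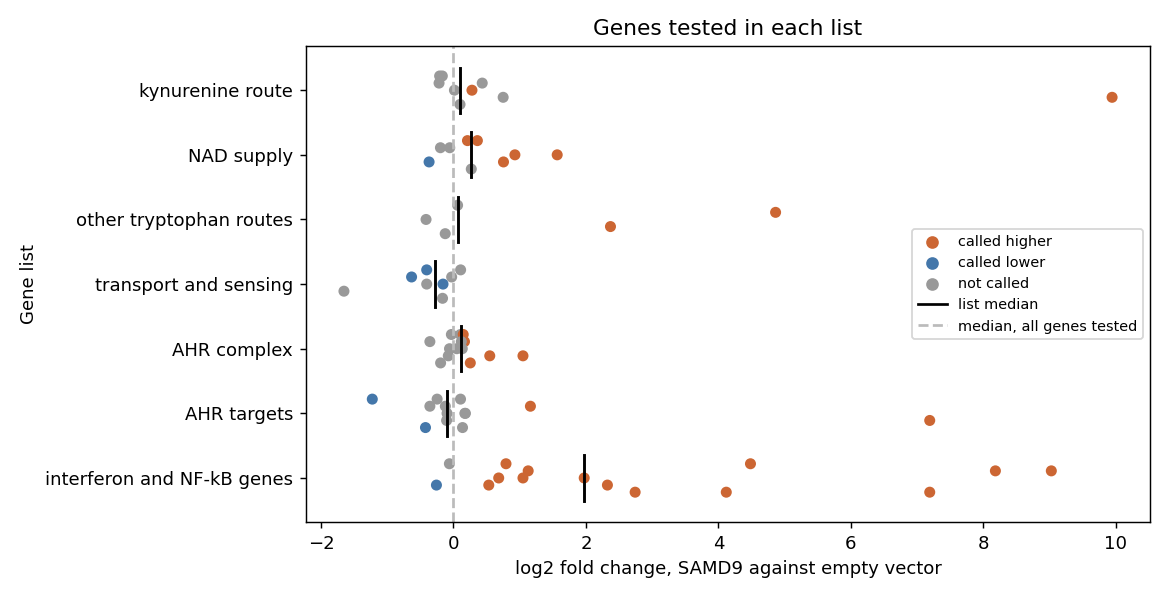
Log2 fold changes of all tested genes in the 7 lists, orange where called higher, blue where called lower and grey where not called, with a black line at each list's median and a dashed line at the median of all genes tested. IDO1 stood alone at 9.94 in the kynurenine route, the AHR targets lay on both sides of 0, and the interferon and NF-kB genes had a median of 1.97.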

How the data were processed

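Each deposited file held the raw counts per Ensembl gene of 1 library, beside the authors' own CPM and RPKM, which recomputation from the counts and listed gene lengths matched. The submitters' processing notes name GRCh38, bcl2fastq, STAR (2.5.1a) and, from Subread, featureCounts (1.4.6-p5). Options, annotation release and strandedness are not given in those notes. Even numbers made up 72.9% of the counts between 1 and 20, as if both mates of each pair had been counted, and intervals on low counts may therefore be too narrow. Symbols were taken from a gene name table (54836 IDs matched) and GENCODE 29.

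edgeR 4.0.16 in R 4.3.3 was run on all 4 libraries: filterByExpr (minimum count 10, total 15), TMM factors from 0.932 to 1.07, then glmQLFit and glmQLFTest without covariates. SE is the absolute log2 fold change over the square root of F. CPM in the text is TMM-scaled unless called deposited. Separate cultures are not stated for the replicates, so the p-values speak only of the spread between libraries, which may be technical. Replicates of a group differed by more than counting noise (chi-square per degree of freedom 9.35 and 5.00).

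The members and lists were chosen with earlier results of these data known. The naming rule takes SAMD9, all members, up to 6 called genes of each list by lowest p, further kynurenine route genes and the nearest profiles. The markers named and further list genes (WARS2, DDC, MAOA, SLC3A2, ARNT, NQO1, ALDH3A1, ABCG2, IFNG, JAK1, BIN1) were named after their values were seen. Some listed genes that enter the counts are not reported here by name. Alternatives were total-count scaling, DESeq2 1.42.0, no filter, the replicate number as a block, and leaving out each library. The fit was also run on simulated data in which a small set of well-expressed genes changed, equally in both directions. That setting differs from these data and does not bear on genes near the limit of detection in the controls, such as IDO1.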

Additional observations from a re-analysis of the deposited data

How the results depend on the processing

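IDO1, CYP1B1 and CYP1A1 kept their direction and call under all 8 alternatives, and KYNU under 7. Under total-count scaling, the genes called higher numbered 1974 and those called lower 5653 over the whole table, against 3038 and 2420 with TMM. In that setting 4 of the 10 members were lower (CYP1A1, AFMID, AHRR and TIPARP). The lists then had 1 rise and 2 falls (kynurenine route), 2 rises and 2 falls (NAD supply), 5 falls (transport and sensing), 2 rises and 5 falls (AHR complex), 7 falls (AHR targets) and 2 falls (interferon and NF-kB genes). GOT2 (-0.17), HSP90AA1 (-0.041) and HSP90AB1 (-0.022) changed sign on the log2 scale. The shift of the median gene by -0.19 comes from the scaling itself. With DESeq2, NAD supply had 3 rises and 0 falls, the cause of which was not tested.

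Leaving out 1 library at a time, genes called lower numbered from 1466 (without SAMD9 replicate 2) to 2279, and members called lower from 1 to 2 (TIPARP joined without empty vector replicate 2). Rises ranged from 2 to 4 and falls stayed at 0 for NAD supply, falls from 0 to 1 for other tryptophan routes, and rises from 0 to 1 for transport and sensing. Rises ranged from 2 to 6 and falls from 0 to 1 for the AHR complex, rises from 2 to 4 and falls from 2 to 4 for AHR targets, and falls from 0 to 1 for interferon and NF-kB genes. Such fits assume that the lone sample varies like the other group.

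Libraries with the same replicate number did not deviate together (correlation 0.004 over 19814 genes). Whether they shared a culture or preparation is not given in the labels, and this check cannot show it. With the replicate number as a block, 2914 genes were higher and 2330 lower, and no member or listed gene gained or lost its call. Over the named and listed genes, 538 values stayed on their side of the threshold (uncalled ones such as AHR and KMO could still cross 0), 25 gained a call, 26 lost one and 3, called in one of both settings, changed sign. Low counts limit KMO and TDO2 among the members, and HAAO, ACMSD, QPRT and IDO2 were too low to test.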
